A study of Mus musculus with 16 samples.

Results

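The 8 genes described here, which make, store, take up, accompany and break down noradrenaline, were measured in RNA of the mouse spleen: *Th*, *Ddc*, *Dbh*, *Slc6a2*, *Slc18a2*, *Npy*, *Maoa* and *Maob*. They were chosen by symbol from the deposited table of gene counts and are 8 of its 54838 genes, of which 28334 had a value above 0 in at least 1 library. All spleens came from C57BL/6 mice, and no genotype or treatment is given. The 8 size-selected libraries hold RNA of what stayed on a cell strainer after the minced organ was digested with enzymes and its red blood cells were lysed, and their source is named as spleen glia. The 8 whole spleen libraries carry the same protocol text, so how they were prepared is not given separately. Each of 8 numbers (407, 408, 427 and 435 male; 436, 445, 447 and 460 female) names 1 library of each kind. The question was whether transcripts of the sympathetic nerve itself are present in the size-selected fraction, or only those of enzymes that handle its transmitter.

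Noradrenaline is the transmitter of the sympathetic nerves that enter the spleen along its arteries. It is made from tyrosine by tyrosine hydroxylase (*Th*), the rate-limiting enzyme, aromatic amino acid decarboxylase (*Ddc*) and dopamine beta-hydroxylase (*Dbh*), loaded into vesicles by the monoamine transporter VMAT2 (*Slc18a2*), released together with neuropeptide Y (*Npy*), and recovered from outside the cell by the noradrenaline transporter (*Slc6a2*). The monoamine oxidases of the outer mitochondrial membrane (*Maoa*, *Maob*) break it down. The cell bodies of these nerves, where most of their mRNA is held, lie in ganglia outside the spleen.

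Total estimated counts ran from 13119992 to 19944440 in the size-selected libraries and from 12153770 to 16282454 in whole spleen. A count of 0 therefore allows up to 3 counts, or 0.150 to 0.229 CPM (counts per 1000000) in a size-selected library and 0.184 to 0.247 in a whole spleen library; these limits cover counting error only. The label was checked against marker genes. All 10 genes of a peripheral glia list rose in the size-selected libraries (edgeR, adjusted p under 0.05, no count filter). In that fit 25.3% of 28235 genes were called higher and 18.2% lower. The summed level of the glia list was 71.8 to 567 CPM against 1.80 to 6.28 CPM in whole spleen. All 6 fibroblast genes rose too (1001 to 3473 against 4.67 to 55.5 CPM), as did all 6 smooth muscle genes (817 to 3824 against 8.68 to 73.4 CPM), all 6 endothelial genes (585 to 1475 against 80.5 to 186 CPM) and all 6 mesothelial genes (21.7 to 199 against 0.381 to 3.10 CPM). The fraction thus held RNA of glia together with RNA of connective tissue, vessels and the organ's surface lining. All 5 B cell genes and 4 of 5 T cell genes were lower (B cell sums 822 to 3103 against 5066 to 6358 CPM, T cell sums 136 to 328 against 412 to 615 CPM). Adipocyte genes stayed between 0 and 0.868 CPM in sum, and pancreas genes at 11.6 to 36.4 against 12.3 to 24.3 CPM. In such bulk samples, fewer cells of a type and less RNA per cell cannot be told apart.

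The promoters of the members at the extremes are shown, *Th* with no count in any library and *Maoa* with the highest level. Each is the 250 bases before the RefSeq transcription start (GRCm38.p6), written 5′ to 3′ on the gene's strand, at chr7:142899996-142900245 (minus strand) for *Th* and at chrX:16619448-16619697 (plus strand) for *Maoa*. Capitals mark TGACGTCA, the palindromic cAMP response element, and GGGCGG or its reverse complement CCGCCC, the GC box.
Th: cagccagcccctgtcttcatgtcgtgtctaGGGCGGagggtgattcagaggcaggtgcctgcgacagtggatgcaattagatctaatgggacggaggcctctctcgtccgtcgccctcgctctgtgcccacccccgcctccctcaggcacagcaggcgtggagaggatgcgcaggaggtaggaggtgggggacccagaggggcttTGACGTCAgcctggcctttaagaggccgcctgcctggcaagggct
Maoa: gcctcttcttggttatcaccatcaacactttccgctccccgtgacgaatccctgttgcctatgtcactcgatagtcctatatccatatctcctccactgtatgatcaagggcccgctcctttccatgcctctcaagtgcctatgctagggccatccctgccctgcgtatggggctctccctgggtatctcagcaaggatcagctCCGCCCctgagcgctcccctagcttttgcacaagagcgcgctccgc

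In the *Th* window TGACGTCA begins 45 bases before the start and GGGCGG 220 bases before it. The *Maoa* window holds the GC box 46 bases before its start. Searched on both strands, TGACGTCA occurred in 1.55% of 32851 RefSeq windows of this length and GGGCGG in 32.7%. Such a match describes letters and is not a measured binding site. Neither *Slc6a2* nor *Maob* was matched in the promoter table.

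The 3 synthesis enzymes were at or near the detection limit. *Th* (chromosome 7, 142892752 to 142931128, minus strand, GRCm38) had 0 counts in all 16 libraries. Over the 124032762 counts of the size-selected group and the 117080705 of whole spleen, no read was assigned to the gene that commits tyrosine to this pathway. *Ddc* (chromosome 11, 11814101 to 11898144, minus strand), whose enzyme also makes serotonin, had 5, 5, 4, 7, 2, 5, 4 and 9 counts in size-selected libraries 407, 408, 427, 435, 436, 445, 447 and 460. It had 0, 10, 13, 2, 8, 4, 10 and 2 counts in whole spleen, in the same order. The groups overlapped, with 4 of 8 pairs higher and 4 lower. Means were 0.315 ± 0.0992 CPM (SD, n = 8) and 0.449 ± 0.370 CPM (SD, n = 8). The log2 difference was -0.54 (SE 0.57; edgeR adjusted p = 0.435), with a 95% interval from -1.66 to 0.57.

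*Dbh* (chromosome 2, 27165233 to 27183200, plus strand), the enzyme that turns dopamine into noradrenaline inside the vesicle, was read in 3 size-selected libraries and in no whole spleen library. The deposited values were 2.48 in library 427, 4.07 in 435 and 0.79 in 460, and 0 in the other 5. These values carry a multiplying constant found in the size-selected columns, and dividing by it gives 3, 5 and 1 counts. The size-selected share was at least 2.31-fold higher than 3 counts over the whole spleen group would give. The log2 difference was 2.87 (SE 1.10; edgeR adjusted p = 0.0458, no count filter). With the number as a block it was 2.44 (adjusted p = 0.267), and the call was lost in 12 of 15 alternatives, including each of the 8 in which 1 number was left out (log2 difference 2.06 to 3.05, adjusted p = 0.0531 to 0.130). *Dbh* was at 0 in 5 of 8 size-selected libraries, so the groups overlapped.

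*Slc6a2* (chromosome 8, 92960079 to 93001667, plus strand), the transporter that takes noradrenaline back into the nerve ending, was with *Dbh* 1 of 2 members read in size-selected libraries only. It had 13, 3, 0, 3, 19, 8, 2 and 1 counts in size-selected libraries 407, 408, 427, 435, 436, 445, 447 and 460, and 0 counts in all 8 whole spleen libraries. The level was higher in 7 pairs and equal, at 0, in pair 427. Libraries 436 (1.03 CPM) and 407 (0.853 CPM) stood at the top, and 4 others held 1 to 3 counts. The mean was 0.378 ± 0.393 CPM (SD, n = 8). The 49 counts summed over the group were a share of its total at least 15.4-fold higher than 3 counts over the whole spleen total. The log2 difference of 5.52 (SE 1.17; edgeR adjusted p = 0.00107, no count filter) was 5.34 with the number as a block (adjusted p = 0.00394) and 2.69 with limma-voom (adjusted p = 1.00e-04). Where 1 number was left out it ran from 5.09 to 5.76 and stayed called each time. In the authors' deposited table *Slc6a2* has a log2 fold change of 4.86, an adjusted p of 1.91e-04, and a mean of 0.075 TPM against 0 in whole spleen. Size-selected library 436, highest in *Slc6a2*, also had the highest glia sum (567 CPM) and platelet gene sum (633 CPM), and library 407, with 13 counts, had one of the lowest glia sums (75.4 CPM). The part of these cell types in the *Slc6a2* level was not tested.

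*Slc18a2* (chromosome 19, 59260896 to 59296012, plus strand), the vesicle loader for noradrenaline, serotonin and histamine, was read in all 16 libraries, at overlapping levels. It had from 49 to 106 counts per size-selected library (3.16 to 5.75 CPM, median 3.83) and from 38 to 111 in whole spleen (2.73 to 8.45 CPM, median 3.94). The ranges overlapped, 3 of 8 pairs were higher in the size-selected library, and the means were 4.11 ± 0.886 and 4.46 ± 1.79 CPM (SD, n = 8 each). The log2 difference was -0.11 (SE 0.22; edgeR adjusted p = 0.668), with a 95% interval from -0.55 to 0.32. Its sign turned to 0.02 with library totals in place of TMM scaling and to 0.12 without number 408. The gene's exons overlap those of an antisense gene, Gm29261, which had 0 counts in every library. VMAT2 is also the histamine loader of mast cells and basophils and the serotonin loader of platelets. The summed level of 8 mast cell genes was 34.6 to 54.6 CPM in the size-selected libraries and 27.0 to 49.0 CPM in whole spleen. Most of both sums was *Kit* (mean 39.3 against 27.6 CPM). The other genes of the list past the filter, *Cpa3* (1.17 against 2.77 CPM) and *Cma1* (2.83 against 6.59 CPM), had lower means. The 6 platelet genes gave 91.9 to 633 against 54.5 to 198 CPM. The part of these cell types in the *Slc18a2* level was not tested.

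*Npy* (chromosome 6, 49822710 to 49829507, plus strand), the peptide released with noradrenaline, had 2, 37, 7, 0, 7, 1, 3 and 0 counts in size-selected libraries 407, 408, 427, 435, 436, 445, 447 and 460. In whole spleen it had 8 counts in library 436, 6 in 447 and 0 in the other 6. One size-selected library, 408, thus stood far above the other 7, of which none passed 7 counts. Means were 0.480 ± 0.857 and 0.121 ± 0.229 CPM (SD, n = 8 each), with 4 pairs higher, 2 lower and 2 equal. The log2 difference of 1.82 (SE 1.05; edgeR adjusted p = 0.169, no count filter) did not pass the test, and without number 408 it was 0.30 (adjusted p = 0.832).

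Both monoamine oxidases rose in the size-selected libraries. *Maoa* (chromosome X, 16619698 to 16687818, plus strand), which prefers noradrenaline and serotonin as substrates, had 199 to 674 counts per size-selected library (13.7 to 44.3 CPM, median 31.7) and 23 to 76 in whole spleen (1.65 to 5.32 CPM, median 2.75). No whole spleen library reached the lowest size-selected one, and all 8 pairs went the same way. The means of 30.9 ± 9.57 and 2.91 ± 1.24 CPM (SD, n = 8 each) differed 10.6-fold. The log2 difference was 3.40 (SE 0.27; edgeR adjusted p = 3.01e-09). It ran from 3.29 to 3.63 where 1 number was left out.

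*Maob* (chromosome X, 16709282 to 16817366, minus strand), the neighbouring and related oxidase, had 40, 18, 97, 16, 94, 20, 33 and 39 counts in size-selected libraries 407, 408, 427, 435, 436, 445, 447 and 460. In whole spleen it had 14 counts in library 407, 2 in 447 and 0 in the other 6. All 8 pairs were higher in the size-selected library, but the 14 counts of whole spleen library 407 (1.09 CPM) exceeded the lowest size-selected value (0.895 CPM), so the groups overlapped. Means were 2.79 ± 2.12 and 0.152 ± 0.381 CPM (SD, n = 8 each). The log2 difference was 4.18 (SE 0.80; edgeR adjusted p = 1.46e-04), 3.68 without number 427 and 6.64 without number 407. Whole spleen library 407 also had the highest platelet gene sum of its group (198 CPM against 54.5 to 121), and whether the 2 values are linked was not tested. In the authors' deposited table *Maob* has a log2 fold change of 4.00, an adjusted p of 2.58e-06, and a mean of 1.49 TPM against 0.0613. That table holds 2201 genes and begins at a log2 fold change of 3.5; it lists 2 of the 8 genes.

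**Figure D1:**
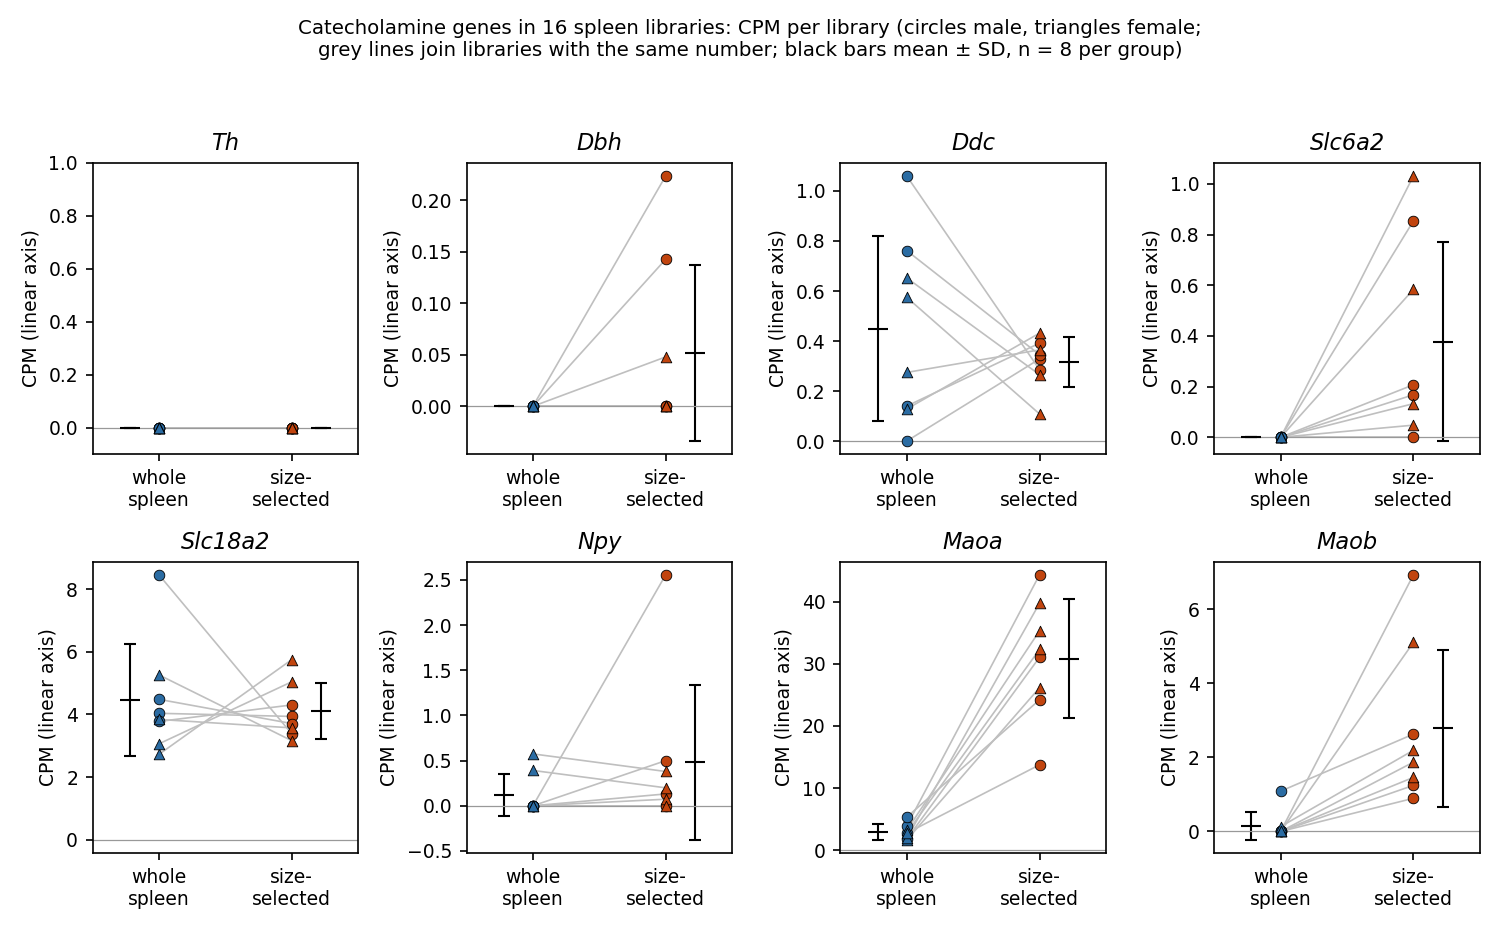
Level of each of the 8 genes in every library, in CPM on linear axes with a scale of their own (circles male, triangles female). Grey lines join the libraries of 1 number, and black bars are mean ± SD, n = 8 per group. The 8 *Maoa* values of the size-selected group sit between 13.7 and 44.3 CPM, all above whole spleen, while *Slc18a2* overlaps and *Th* is at 0 throughout.

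Counted over the 8 genes, 7 were above 0 in some library and 3 passed the count filter (*Slc18a2*, *Maoa* and *Maob*). Of the 7, 4 were called higher (*Dbh*, *Slc6a2*, *Maoa*, *Maob*) and none lower in the fit with no count filter, in which 43.5% of 28235 genes were called, 25.3% higher and 18.2% lower. In the fit with the filter 2 of the 3 were called, both higher, where 67.9% of 14510 genes were called, 37.5% higher and 30.4% lower. The 4 calls are thus set against a comparison in which a large share of all genes was called. *Maoa* alone among the members had groups that did not overlap, as did 23.3% of the filtered genes, and 13.6% of all genes tested, in that direction. The median log2 difference over all filtered genes was 0.05 with TMM scaling and 0.18 with library totals.

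Levels of different genes were compared per kilobase of each gene's longest coding transcript. In the size-selected libraries the order of means was *Maoa* (7.40 ± 2.30 CPM per kb, SD, n = 8), *Maob* (1.16 ± 0.879), *Slc18a2* (1.09 ± 0.234), *Npy* (0.848 ± 1.51), *Ddc* (0.156 ± 0.0492), *Slc6a2* (0.0611 ± 0.0635), *Dbh* (0.0203 ± 0.0335) and *Th* at 0. *Maoa* stood above *Maob* and *Slc18a2* in 8 of 8 libraries. *Maob* and *Slc18a2* did not separate, with *Slc18a2* above *Maob* in 5 of 8. The mean of *Npy* without library 408 was 0.324 ± 0.339 CPM per kb (SD, n = 7), still between *Slc18a2* (1.11) and *Ddc* (0.154). The genes with the highest levels were thus the oxidases and the vesicle loader, and the lowest were the uptake transporter and the 3 synthesis enzymes.

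The ratio of *Maoa* to *Maob* within a library does not depend on how libraries are scaled. Summed counts gave 11.1 *Maoa* counts per *Maob* count in the size-selected group and 20.4 in whole spleen, where 14 of the 16 *Maob* counts were in library 407. Without that number the sums were 3486 against 317 counts and 303 against 2. The mean log2 ratio (0.5 added to each count) was 3.69 ± 0.87 in the size-selected libraries and 5.36 ± 2.07 in whole spleen (SD, n = 8 each). In 1 of 8 pairs the ratio was higher in the size-selected library. The difference in means of -1.67 did not pass an exact two-sided permutation test over 12870 splits (p = 0.0547), which did not use the pairs. Without number 407 it was -2.31 (exact permutation p = 0.00175), and with 2 added to each count -0.19 (exact permutation p = 0.771), since 6 whole spleen libraries had no *Maob* count.

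Around these members, 9 other genes of synthesis and its cofactor were examined. Of the 8 past the count filter, 4 rose, 2 fell and 2 were not called (median log2 difference 0.61), beside 37.5% of all filtered genes called higher and 30.4% lower. *Cyb561*, the vesicle-membrane cytochrome that recycles ascorbate for the *Dbh* reaction, rose by 3.99 on the log2 scale (SE 0.25; edgeR adjusted p = 3.24e-10). *Spr* rose by 1.19 (edgeR adjusted p = 1.68e-06). *Pcbd1*, which regenerates the tetrahydrobiopterin cofactor, rose by 2.76, and *Gchfr*, which regulates the first enzyme of cofactor synthesis, by 2.06. That enzyme, *Gch1*, was lower by a log2 difference of -0.43 and *Qdpr*, which recycles the cofactor, by -0.45. *Qdpr* carries 1 of the multiplying constants of the size-selected columns, and on restored counts it was not called (log2 difference -0.20, edgeR adjusted p = 0.0822). *Pnmt*, which makes adrenaline, had at most 2 counts in any library. *Cyb561* had 181 to 586 counts in the size-selected libraries against 14 to 32, with no overlap.

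Among 8 other genes of transport and storage, *Slc6a3*, the dopamine transporter, was, like *Slc6a2*, almost absent from whole spleen. It had 2 to 31 counts in the size-selected libraries and at most 1 in whole spleen, with no overlap and 8 of 8 pairs higher. The log2 difference was 5.61 (SE 0.84; edgeR adjusted p = 7.90e-06, no count filter). The low-affinity extraneuronal carriers *Slc22a3* (47 to 143 against 5 to 21 counts) and *Slc29a4* (195 to 418 against 27 to 81 counts) rose by 2.70 and 2.04 (adjusted p = 1.27e-06 and 3.91e-07, edgeR). These were the 2 genes of the list past the filter, and their groups did not overlap. Over all filtered genes 37.5% were called higher and 23.3% lay above whole spleen with no overlap. With no filter these shares were 25.3% and 13.6%. *Slc22a2* was lower by a log2 difference of -2.76 (edgeR adjusted p = 0.0194) at no more than 5 counts per library, and was not called with the number as a block (adjusted p = 0.104). The granins *Chga*, *Chgb* and *Scg2*, cargo of dense-core vesicles, were not called.

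All 6 other breakdown genes examined passed the filter, with 5 higher and 1 lower (median log2 difference 0.59), beside the same shares of 37.5% and 30.4% over all filtered genes. *Sult1a1*, a phenol sulfotransferase, rose by 2.52 (SE 0.42; edgeR adjusted p = 3.03e-05) and *Aldh7a1*, an aldehyde dehydrogenase, by 1.62 (SE 0.18; edgeR adjusted p = 2.54e-07). *Aldh7a1* had 282 to 651 counts in the size-selected libraries against 77 to 184, with no overlap. *Akr1a1* and *Aldh2*, which act on the aldehydes that the oxidases form, rose by 0.60 and 0.58. *Akr1b3*, an aldose reductase, was lower by a log2 difference of -0.92 (SE 0.08; edgeR adjusted p = 5.62e-09), and by -0.55 on restored counts (adjusted p = 1.74e-06). The breakdown genes other than *Maoa*, *Maob* and *Sult1a1* thus had log2 differences between -0.92 and 1.62 on the values as deposited. Of 5 genes of serotonin and histamine handling 3 passed the filter: *Hnmt*, which methylates histamine, rose by 3.64 and *Slc6a4*, the serotonin transporter, by 1.52, while the histamine-making *Hdc* was lower by a log2 difference of -0.63 (edgeR adjusted p = 1.17e-06, 8.71e-04 and 0.00880).

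Of 9 genes that process neuropeptide Y or receive it, 5 passed the filter, 4 of them rose and none fell (median log2 difference 4.39), where 37.5% of all filtered genes were called higher. *Cpe*, a carboxypeptidase of peptide maturation, rose by 5.95 (676 to 3873 against 4 to 71 counts) and *Pam*, the amidating enzyme, by 4.39. *Npy1r*, a neuropeptide Y receptor of vascular smooth muscle and other cells, rose by 5.68 (SE 0.62; edgeR adjusted p = 1.98e-07), from 0 to 18 counts in whole spleen to 85.1 to 628. *Pcsk1*, a prohormone convertase, rose by 3.11. *Dpp4*, which trims the peptide, was not called (log2 difference 0.01), but its deposited values carry a constant and on restored counts it was called higher (0.41, edgeR adjusted p = 0.00254). *Npy5r* was at 0 in every library. With no filter 6 of the 9 were called higher, and 5 with the number as a block, where 25.3% of all genes were called higher. The median log2 difference with no filter was 3.68 over the 8 genes above 0. Of the 4 receptors in the list 2 were called, *Npy1r* and *Npy4r*, the latter at no more than 5 counts.

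**Figure D2:**
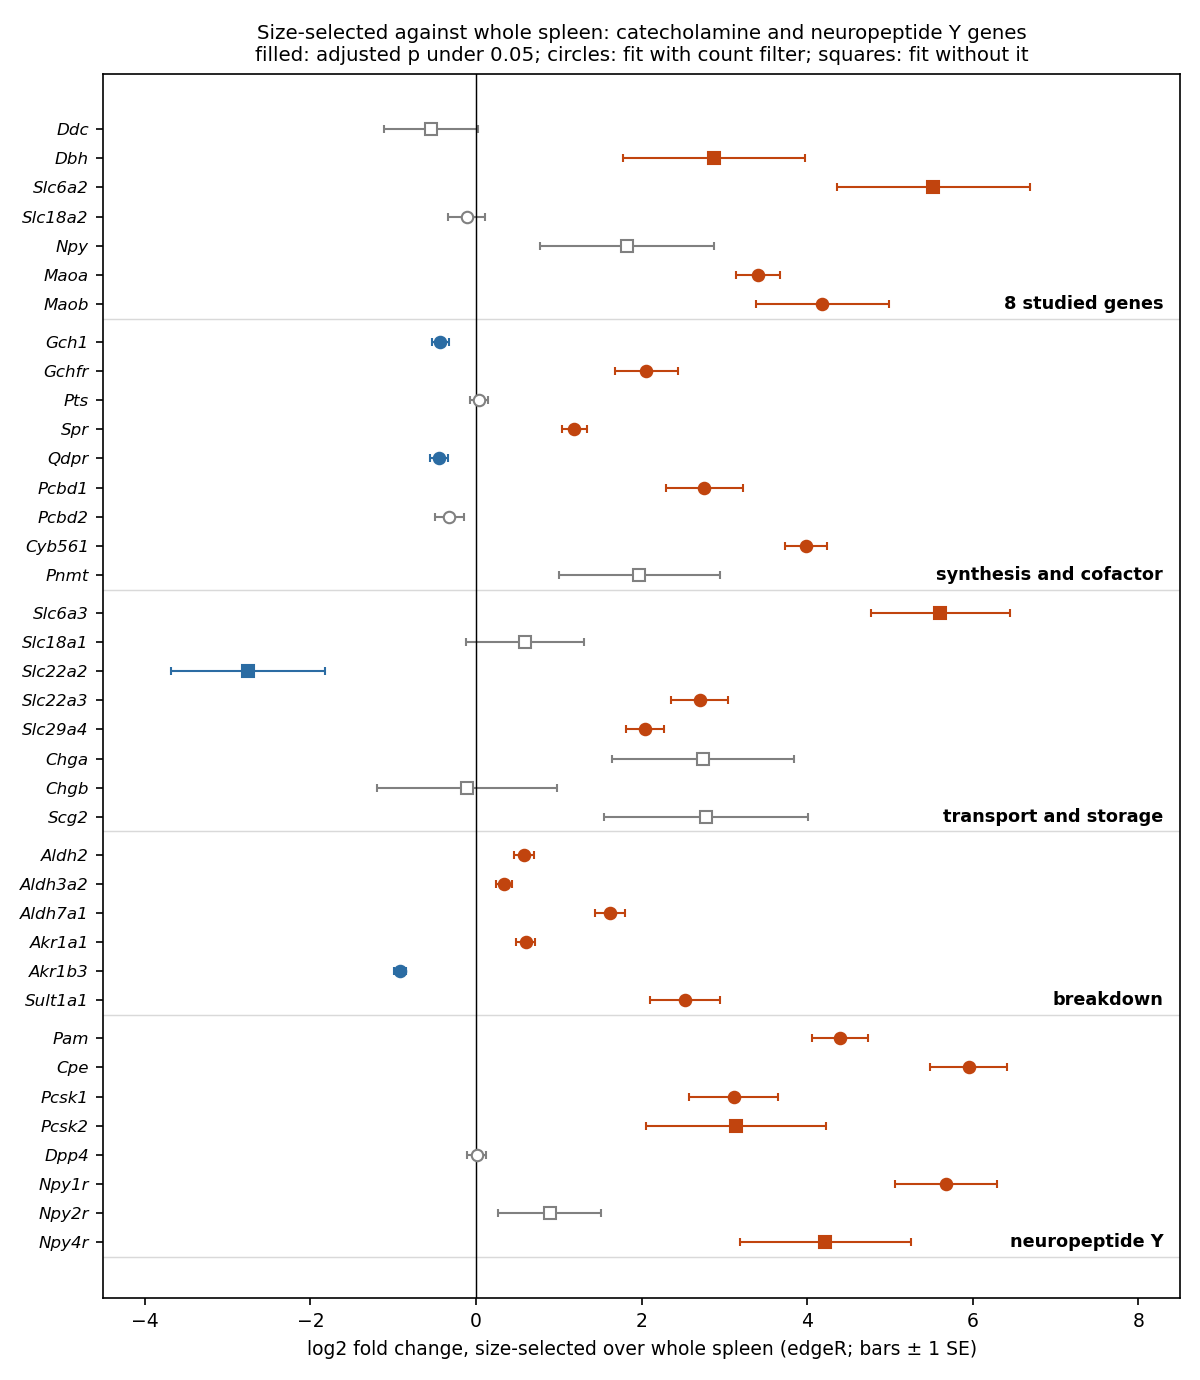
Log2 fold change of the size-selected over the whole spleen libraries, with bars of ± 1 SE (edgeR), for the 8 genes and the pathway lists. Circles come from the fit with the count filter and squares from the fit without it, filled where the adjusted p was under 0.05. *Th* and *Npy5r*, at 0 in all libraries, are not drawn; *Maoa* and *Maob* sit at 3.40 and 4.18, while most other breakdown genes lie nearer to 0.

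Genes of sympathetic neurons outside the transmitter pathway were compared as a list of 16. Of these, 5 passed the filter and 4 of the 5 rose, where 37.5% of all filtered genes did. With no filter 10 rose and 1 fell (25.3% and 18.2% over all genes tested), 8 rose with the number as a block, and 9 rose without number 408. The median log2 difference was 3.47 over the 16, and 6 of them lay above whole spleen with no overlap, as did 13.6% of all genes tested. *Stmn2*, a tubulin-binding protein of growing axons, had 167 to 715 counts against 0 to 19 and rose by 6.26 (SE 0.54; edgeR adjusted p = 9.36e-09). *Prph*, the intermediate filament peripherin, had 46 to 99 counts against 0 to 8 (log2 difference 4.38). *Hand2*, a transcription factor of sympathetic neurons that mesenchymal cells also use, had 13 to 62 counts against 0 to 1 (5.58). *Phox2a*, which drives the noradrenergic programme, had up to 10 counts and was above 0 in all 8 size-selected libraries and in no whole spleen library (4.87, SE 0.97; edgeR adjusted p = 6.24e-04, no count filter). *Gata3*, also a T cell factor, was lower by a log2 difference of -1.54. Summed over the list, the size-selected libraries held 33.4 to 77.9 CPM and whole spleen 19.1 to 28.6 CPM. Most of the whole spleen sum was *Gata3* (mean 18.6 CPM); without it, a choice made after seeing the values, the other 15 genes summed to 28.4 to 76.2 against 2.25 to 7.04 CPM. The neuronal RNA-binding genes *Elavl3* and *Elavl4* and the medium neurofilament chain *Nefm* had at most 1.64, 1 and 4 counts and were not called. Some sympathetic genes other than the enzymes were thus read in libraries in which *Th* was at 0, and others of the list were at or near 0.

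The library with the highest *Npy* also had the highest value of some other neuronal genes, which were chosen after their values were seen. Size-selected library 408 was highest in 7 of 19 nerve and granin genes, of which *Elavl3*, *Elavl4*, *Chga* and *Chgb* had at most 7 counts. It was the lowest size-selected library for *Stmn2* (167 counts) and *Hand2* (13 counts). *Snap25*, a protein of synaptic vesicle fusion, had 19 counts there and 0 in the other 15 libraries. *Nefl*, the light neurofilament chain, had 9 counts there, 3 in whole spleen library 447 and 0 elsewhere, and *Scg2* had 25 counts against at most 3 in any other library. In that library *Th* and *Dbh* were at 0 and *Slc6a2* had 3 counts. The highest values of the other listed genes fell in library 436 for 6, in 427 for 5 and in 435 for 1. Among the size-selected libraries *Snap25* and *Nefl* were thus read in 408 alone, which also held 37 of the 57 *Npy* counts, while *Slc6a2* and *Stmn2* were above 0 in at least 7 of 8.

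**Figure D3:**
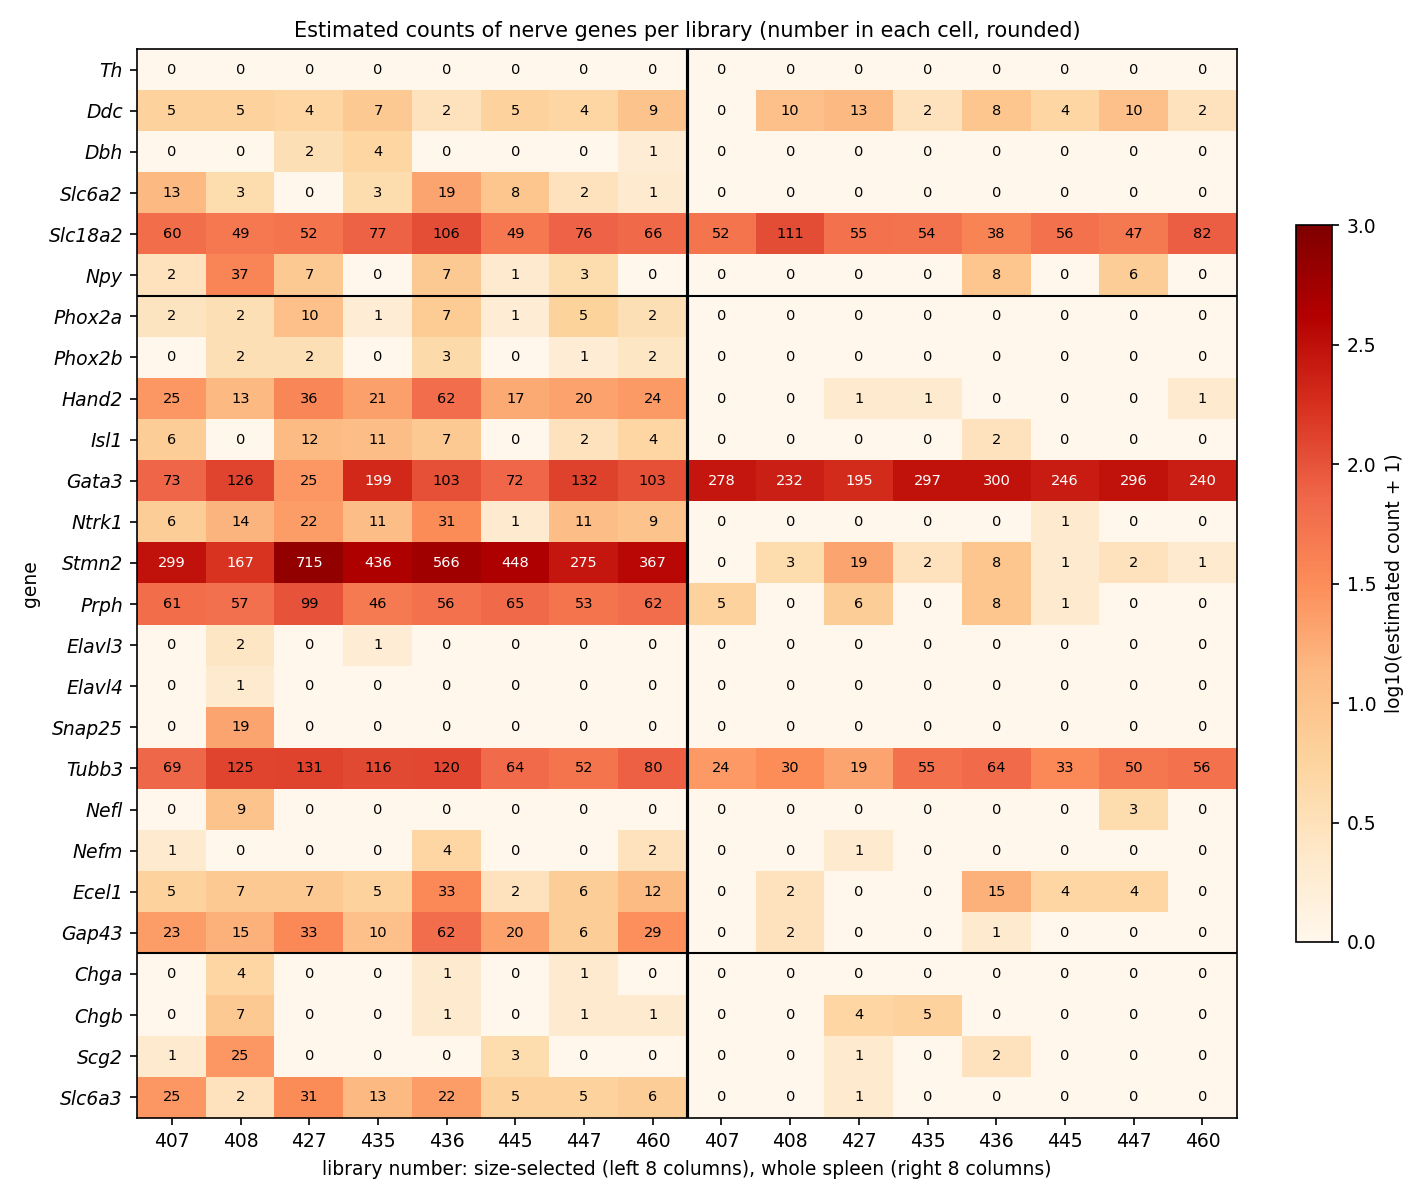
Estimated counts of nerve and granin genes in each library, rounded in the cells, with colour on a log10(count + 1) scale. The left 8 columns are size-selected and the right 8 whole spleen libraries, by number. *Slc6a2* is above 0 in 7 size-selected and 0 whole spleen libraries, *Th* is at 0 in all, and *Snap25* is read in size-selected library 408 only.

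Cell types other than nerve that can hold these transcripts moved between the fractions as well. Over all filtered genes 37.5% were called higher. Of 6 macrophage genes 4 rose and none fell, and their sums were 1446 to 3361 against 861 to 1512 CPM. Macrophages in contact with sympathetic nerves have been described that take up noradrenaline with *Slc6a2* and degrade it with *Maoa*. All 6 platelet and megakaryocyte genes rose (median log2 difference 1.62). Of 8 mast cell genes 3 passed the filter: *Kit* rose by 0.51, and *Cpa3* and *Cma1* were lower by log2 differences of -1.24 and -1.21. On restored counts *Cpa3* was not called (-0.99, edgeR adjusted p = 0.0545). With no filter 2 mast cell genes were called higher and 3 lower, and without number 408 these counts were 0 and 2 (25.3% higher and 18.2% lower over all genes tested). Beside the log2 differences of *Maoa* (3.40), *Maob* (4.18) and *Slc6a2* (5.52), the median of the list was 0.57 for macrophage, 1.62 for platelet, 4.20 for endothelial, 4.38 for sympathetic neuron, 5.94 for mesothelial, 6.45 for glia, 6.54 for smooth muscle and 7.12 for fibroblast genes past the filter. The *Slc6a2* value comes from the fit with no filter. In that fit the median was 3.47 over the 16 sympathetic neuron genes, of which 5 passed the filter, and 6.31 over the 10 glia genes. The part of each cell type in the members' rises was not tested.

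The genes whose levels followed each member most closely across the 8 size-selected libraries were named by the Pearson correlation of log2 CPM among 12286 genes, given as a description. For *Maoa* they were *Arrb1* (r = 0.987), *Crispld1* (0.982) and *Abcb6* (0.975). For *Maob* they were *Bmp4* (0.988), *Ndrg1* (0.980) and *Pde5a* (0.979). For *Slc18a2* they were the immunoglobulin segments *Igkv14-126* (0.915), *Igkv1-133* (0.909) and *Ighv11-2* (0.900), whose reads can be shared with near-identical segments. The named genes were picked as the highest of 12286 over 8 libraries. Whether their values exceed what such a search gives by chance was not tested, so no shared cell type is read from them. All points share the fraction, its depth and its mixture of cell types. The other members were too low for the measure.

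Sex was compared within each fraction, 4 male against 4 female libraries, and no member was called. In the size-selected libraries 0.0397% of 15127 genes were called with the count filter and 0.026% of 26917 without it (edgeR). In whole spleen these shares were 0.194% of 13383 and 1.13% of 24143. *Maoa* averaged 28.3 ± 12.8 CPM in male and 33.4 ± 5.70 CPM in female size-selected libraries (SD, n = 4 each), a log2 difference female minus male of 0.23 with a 95% interval from -0.32 to 0.78. *Maob* averaged 2.92 ± 2.77 and 2.65 ± 1.66 CPM, a log2 difference of -0.11 with an interval from -1.34 to 1.13. In whole spleen the differences were -0.54 for *Maoa* (95% interval -1.31 to 0.23) and -2.71 for *Maob* (-5.79 to 0.37), and the latter turned to 2.25 without number 407. Both genes lie on the X chromosome, and neither passed the test in either fraction. *Npy* was read in whole spleen of 2 females and of no male (log2 difference 4.81; edgeR unadjusted p = 0.0134, adjusted p = 0.242). In the size-selected libraries, where the high library 408 is male, the log2 difference was -2.26 (edgeR adjusted p = 0.836). The sex difference of *Npy* between the fractions was -7.14 (edgeR unadjusted p = 0.00809, adjusted p = 0.99994), in a fit without a filter that called 0% of 28235 genes by edgeR, with 1278 at an unadjusted p under 0.05. The filtered fit called 0% of 15760 genes, with 744 at that unadjusted limit, and DESeq2 called 3.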

How the data were processed

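RNA sequencing gave 8 size-selected and 8 whole spleen libraries, grouped by title. Per the submitters' processing notes, Trim Galore, STAR, RSEM and DESeq were used with build mm10; versions are not given in the sources used here. The authors deposited estimated counts per gene. In the size-selected columns the deposited counts of 3898 genes are multiplied by 1 or more of 3 constants per library (0.659 to 0.789, 0.770 to 0.858 and 0.889 to 0.964), found from the values alone. *Dbh* is the only member affected, several genes of the other lists are too, and counts divided by the constants (restored counts) were an alternative. A second deposited table gives the authors' comparison: per the file headers a mean signal per gene (base mean), a log2 fold change, a test score, p-values, and mean TPM and FPKM values per group (the deposited FPKM were not used). Of 54838 gene identifiers, 54723 were found in GENCODE M21 (GRCm38), 54174 with the same symbol. All per-sample columns were used.

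Counts were rounded and tested with edgeR 4.0.16 in R 4.3.3: filterByExpr (minimum count 10), TMM scaling, quasi-likelihood F test, Benjamini-Hochberg adjusted p under 0.05 over all genes tested. Genes below the filter come from a fit of all genes with at least 1 count over the libraries fitted, adjusted over all of those. SE is the log2 difference over the square root of F, and 95% intervals are normal intervals from that SE. CPM uses TMM-scaled totals, and limits on a count of 0 use unscaled totals. The ratio of *Maoa* to *Maob* was tested by exact permutation. The fits were tested on simulated data with known changes. Nothing says that libraries came from separate animals, so p-values measure the spread between these samples. Libraries of 1 number were taken as pairs, since after removal of the group means they correlated at r = 0.12 to 0.375 for the 8 same-numbered pairs and -0.029 on average otherwise (14510 genes). The main fits and the permutation test did not use these pairs, and a block for the number was an alternative. DESeq2 1.42.0 and limma 3.58.1 (voom) were alternatives too. Promoter windows came from RefSeq tables.

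The members and lists were chosen with earlier results of these data known. Named genes are the 8 members, at most 4 called genes of each pathway list by size of change with any that go the other way, and the 3 genes most correlated with each filtered member (mean log2 CPM of at least 1). A few genes of the pathway lists are not reported here.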

Additional observations from a re-analysis of the deposited data

Results flagged for a closer look

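Of 50 groups of 8 libraries screened for 1 value far from the rest, 10 were marked, where chance alone marks about 2.5. Among the members, *Slc18a2* in whole spleen library 408 (8.45 CPM, others 2.73 to 5.26), *Npy* in size-selected library 408 (2.56 CPM from 37 counts, others 0 to 7 counts) and *Maob* in whole spleen library 407 (1.09 CPM, others 0 to 0.130) stood apart. The *Maob* value also set apart the log2 *Maoa* to *Maob* ratio of that library (0.70, others 4.31 to 7.26).

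The other marked values are marker sums. Size-selected library 436 was high in peripheral glia genes (567 CPM, others 71.8 to 228) and in adipocyte genes (0.868 CPM, others 0 to 0.357). Whole spleen library 427 was high in peripheral glia (6.28 CPM, others 1.80 to 3.88), fibroblast (55.5 CPM, others 4.67 to 22.3) and endothelial genes (186 CPM, others 80.5 to 119), while its *Maoa* level of 3.91 CPM lay within its group and its *Maob*, *Slc6a2* and *Dbh* counts were 0. Whole spleen library 407 was high in platelet and megakaryocyte genes (198 CPM, others 54.5 to 121).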

How the results depend on the processing

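The called rises of *Maoa*, *Maob* and *Slc6a2* kept direction and call under every alternative run (17, 17 and 16), with *Slc6a2* lowest at 2.69 under limma-voom. The number of genes called between fractions was 9249 to 9823 where 1 number was left out, and 10076 with the replicate block (9855 as reported); the block ended no call among the members except that of *Dbh*. *Slc18a2* changed sign with library totals (0.019) and ran from -0.28 to 0.12 over left-out numbers. The sex terms of low genes changed sign as 1 number was left out: *Ddc* -0.49 to 0.049 in size-selected and -0.66 to 0.45 in whole spleen libraries, its interaction -0.71 to 0.51 (-0.46 with the block); *Slc6a2* -0.35 to 1.71; *Maob* -0.64 to 0.71, -4.93 to 2.25 and, for the interaction, -2.53 to 5.02. The sex count in size-selected libraries was 22 with DESeq2 (6 as reported). In whole spleen it was 518 with DESeq2, 273 with no filter and 7 to 261 over left-out numbers (26 as reported). The interaction gave 3 genes with DESeq2, 3 with the block and 0 to 1 over left-out numbers (0 as reported). The ratio difference ran from -2.31 to -1.35 over left-out numbers. No interaction could be fitted for *Dbh* and *Slc6a2*, since whole spleen was at 0. The causes were not tested. In a single library, 3 counts or fewer lie within the limit that a count of 0 allows.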
